A study of Mus musculus with 12 samples.

Results

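The genes described here are 10 members of the activator protein 1 (AP-1) and immediate early groups, namely Fos, Fosb, Fosl2, Jun, Junb, Jund, Egr1, Atf3, Ier2 and Nr4a1. They were taken by symbol from 55401 Ensembl gene identifiers in the deposited tables, and all 10 passed the filter on low values in every comparison. RNA came from myeloid cells gated as CD45+, CD11b+ and Ly6G- that were sorted from dissociated hind paws of adult mice 4 h after a saline or 1% carrageenan injection into the paw. Carrageenan is a seaweed polysaccharide that provokes acute inflammation. There were 4 groups of 3 libraries (n = 3): FABP5Flox mice (Flox) and FABP5Flox/LysM-Cre mice (cKO), each with saline or carrageenan. All groups carried the floxed Fabp5 allele, and the cKO mice also expressed Cre from the myeloid lysozyme M locus, Lyz2. LysM-Cre without the floxed allele was in none of the groups, so effects of Cre, of the altered Lyz2 allele and of the loss of FABP5, a fatty acid binding protein, cannot be told apart. Each library pooled cells of 3 or 4 mice, 10 Flox and 12 cKO mice per treatment by the number ranges in the titles, and pools are named here by those ranges.

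AP-1 is a dimer of basic leucine zipper proteins in which a Fos protein pairs with a Jun protein. Fos, FosB and c-Jun are induced within minutes of a stimulus through MAP kinases, serum response factor and CREB, and their short-lived mRNAs fall soon after, whereas Fra-2, the product of Fosl2, usually appears later and lasts longer. In macrophages AP-1 helps drive cytokine, protease and prostaglandin genes, and the same immediate early genes are known to be induced by the enzymatic digestion that frees cells from tissue.

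The 150 bases before the start sites of Fosb, Fosl2 and Fos are shown because the results turn on these 3 genes. In carrageenan the estimates for Fosb and Fos lay lower and that for Fosl2 higher in both genotypes. Fos passed the test in neither genotype alone, and Fosb passed in Flox only. The sequences are RefSeq's, read 5′ to 3′ on the gene's strand from build GRCm38.p6, at chr7:19310046-19310195 (minus strand), chr5:32136322-32136471 (plus strand) and chr12:85473740-85473889 (plus strand). Capitals mark TGACG, the core of the CREB and ATF site, GCGNGGGCG, an EGR family site, and TATAAA, which places the start of transcription, on either strand.
Fosb: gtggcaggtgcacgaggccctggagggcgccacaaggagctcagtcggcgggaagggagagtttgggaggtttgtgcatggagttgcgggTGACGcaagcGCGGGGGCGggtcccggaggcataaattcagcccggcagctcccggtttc
Fosl2: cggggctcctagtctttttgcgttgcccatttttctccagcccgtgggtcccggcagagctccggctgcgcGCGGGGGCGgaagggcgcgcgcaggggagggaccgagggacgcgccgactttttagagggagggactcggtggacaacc
Fos: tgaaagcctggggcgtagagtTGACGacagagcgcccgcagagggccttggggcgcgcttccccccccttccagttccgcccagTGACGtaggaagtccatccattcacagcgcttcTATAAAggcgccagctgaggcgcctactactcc
In Fos, TGACG begins at -129 and -66 and TATAAA at -33 from the start. In Fosb, TGACG begins at -60 and the EGR site at -50, and in Fosl2 the EGR site begins at -79.

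The RefSeq promoter table matched 8 of the 10 genes (not Egr1 or Ier2), and 250 bases before each start were searched on both strands. TGACG was present in 5 of 8 (Fos, Fosb, Junb, Atf3 and Nr4a1), against 17.8% of all 32851 promoters in the table. The EGR site was present in 3 of 8 (Fosb, Fosl2 and Nr4a1), against 4.70% of all promoters. The AP-1 site TGANTCA and the CArG box bound by serum response factor were in 0 of 8, against 6.75% and 1.47%, and TATAAA was in Fos alone of the 8, against 12.4%. These are letter matches in a short window and not shown to be bound sites. Bases further upstream were not searched, so 0 of 8 does not show that these genes lack a site. The shares over all promoters were not matched for base composition. The RefSeq starts of Fosl2 and Fosb lie inside the genes' spans in the GENCODE annotation, so another start exists upstream of each. For Fosb, on the minus strand, the span reaches 19310051 and the bases shown begin at 19310046.

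The libraries differed widely in depth, from 111925 to 994161 reads in genes in the 6 Flox pools and from 508407 to 2987015 in the 6 cKO pools, so depth and genotype cannot be told apart. The leukocyte gene Ptprc and the CD11b gene Itgam were present in all 4 groups (group means of 258 to 551 and of 323 to 341 normalized counts on a common scale), and the neutrophil gene Ly6g had 0 to 3 reads per group. Fabp5 itself was low, at 21.9 ± 15.6 (SD, n = 3) in Flox saline, 7.49 ± 3.89 in cKO saline, 56.9 ± 33.3 in Flox carrageenan and 13.2 ± 8.34 in cKO carrageenan on the deposited scale. Its change in cKO was -1.20 ± 0.79 (log2, SE; adjusted p = 0.683, limma) in saline and -2.06 ± 0.53 (adjusted p = 0.497) in carrageenan. The values did not overlap between genotypes in carrageenan and overlapped in saline.

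The 4 h carrageenan response was first compared within each genotype. Of the 10 genes, Fosb fell and Fosl2 rose in Flox cells, and Fosl2 rose in cKO cells (limma on log2(value + 1), adjusted p under 0.05 over 10240 genes). Over all genes tested, 4.42% were called higher and 2.74% lower in Flox, and 2.10% were called higher and 0.547% lower in cKO. The median log2 change of the 10 genes was -0.47 in Flox and -0.39 in cKO, beside 0.10 and -0.07 over all genes. Values are normalized counts on a common scale for all 12 libraries, and levels of different genes are not compared, since 3' reads measure each gene with its own efficiency.

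**Figure D1:**
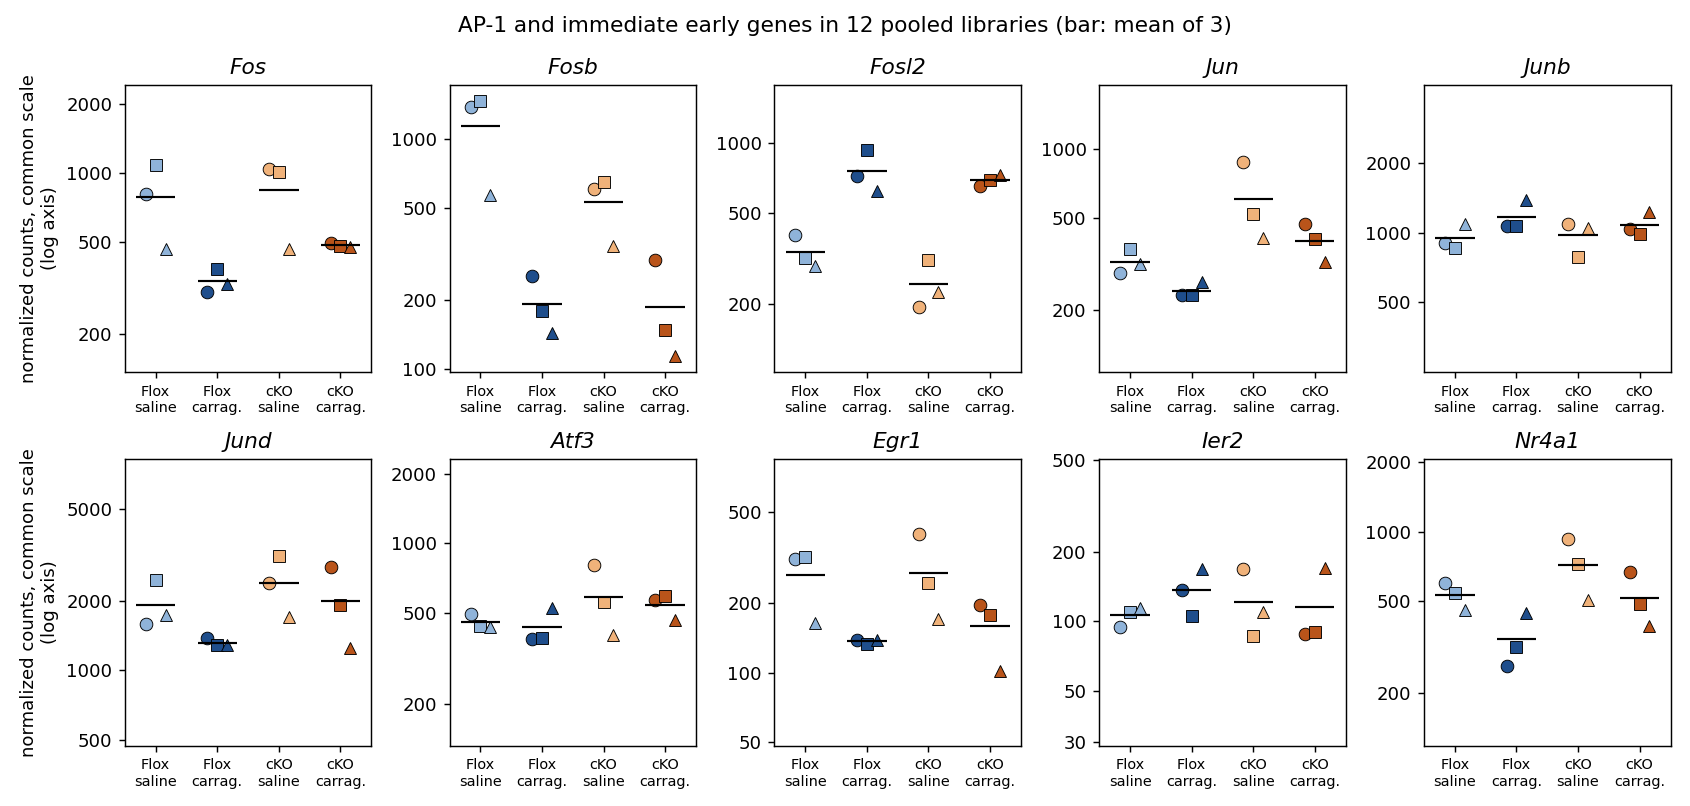
Normalized counts on the common scale (log axis, the same fold span in each panel) of the 10 genes in the 4 groups; each point is a pool of mice (circle, square and triangle in order of mouse number), and bars are means of 3 pools. Fosb lies lower and Fosl2 higher in carrageenan than in saline in both genotypes without overlap, and Junb lies at similar values in all 4 groups.

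Fosb (chr7:19302696-19310051, minus strand) encodes FosB, a partner of Jun proteins. In Flox saline it stood at 1376, 1466 and 570.5 normalized counts in pools 1-3, 4-7 and 8-10, and in Flox carrageenan at 254, 180.2 and 144. All saline pools lay above all carrageenan pools, and the means were 1137 ± 493 and 193 ± 56.3 (SD, n = 3). The change was -2.48 ± 0.42 (log2, SE), a 5.57-fold fall (adjusted p = 0.00309, limma), and it stayed called when any of the 12 libraries was left out. In cKO saline pools 1-4, 5-8 and 9-12 Fosb stood at 606, 650.0 and 342.5, and in cKO carrageenan at 299, 149 and 114. These values did not overlap either, with means of 533 ± 166 and 188 ± 98.3 (SD, n = 3). The cKO change of -1.57 ± 0.42 (log2, SE) missed the threshold (adjusted p = 0.0633, limma). It passed in limma when the pool number was kept as a replicate block (-1.57, adjusted p = 0.0187). That the number pairs the cKO pools is a hint from these same data and is not given by the labels. The cKO change also passed with edgeR and DESeq2 on recovered reads (-1.50 with each, adjusted p = 0.0137 and 0.00906), so that it is reported as depending on the test.

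Fosl2 (chr5:32135801-32157842, plus strand) encodes Fra-2. The Flox saline pools stood at 400, 317 and 294 and the Flox carrageenan pools at 721, 938.5 and 622. Every carrageenan pool lay above every saline pool, and the rise was 1.16 ± 0.24 (log2, SE), or 2.24-fold (adjusted p = 0.0108, limma). Without the carrageenan pool 4-7, the highest of all, the Flox rise was 1.00 and lost its call (adjusted p = 0.0573). In cKO it stood at 194, 312 and 227 in saline and at 653, 695 and 730.3 in carrageenan. The cKO groups were again separate, and the rise of 1.53 ± 0.24 (log2, SE), or 2.89-fold, was called (adjusted p = 0.00364) and remained so without any single library.

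Fos (chr12:85473890-85477273, plus strand) encodes c-Fos, the best known immediate early protein. The Flox saline pools stood at 810.2, 1083 and 469, and the Flox carrageenan pools at 304, 381 and 331, without overlap. The cKO saline pools stood at 1045, 1013 and 469 and the cKO carrageenan pools at 498, 483 and 477, where the lowest saline pool, 9-12, lay below all 3 carrageenan pools. The log2 changes were -1.14 ± 0.33 (SE) in Flox and -0.70 ± 0.33 in cKO, and neither passed (adjusted p = 0.0524 and 0.470 in limma). The Flox value lay just beyond the threshold and passed with edgeR (-1.19, adjusted p = 0.0319) and DESeq2 (-1.22, adjusted p = 0.0117). Without the Flox saline pool 8-10, the lowest of its group, it was -1.47 (adjusted p = 0.0138).

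The Jun proteins pair with Fos and with each other, and none of their 3 genes passed the test in either genotype. Jun (chr4:95049034-95052222, minus strand), which encodes c-Jun, stood at 289, 366 and 315 in Flox saline and at 231, 231 and 264 in Flox carrageenan. The Flox groups did not overlap, but the change was only -0.41 ± 0.27 (log2, SE; adjusted p = 0.385, limma). In cKO it was 880.0, 519 and 408 in saline and 469, 406 and 323 in carrageenan, groups that overlapped (-0.53 ± 0.27, adjusted p = 0.558). The saline pool 1-4 stood above all other libraries. Jund, whose product is widely made without a stimulus, ranged from 1587 to 2460 in Flox saline, 1290 to 1378 in Flox carrageenan, 1698 to 3130 in cKO saline and 1249 to 2819 in cKO carrageenan (log2 changes -0.52 ± 0.32 and -0.30 ± 0.32, SE). Junb, whose product often limits c-Jun activity, ranged from 782 to 1388 over all 12 libraries, with changes of 0.31 ± 0.24 and 0.16 ± 0.24.

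Atf3, a stress-induced repressor that binds AP-1 and CREB sites, ranged from 435 to 494 in Flox saline and 383 to 524 in Flox carrageenan, with changes of -0.09 ± 0.26 (log2, SE) in Flox and -0.06 ± 0.26 in cKO. Egr1, a zinc finger activator, stood at 311, 319 and 164 in Flox saline and at 139, 133 and 138 in Flox carrageenan. The Flox carrageenan pools lay close together and below every Flox saline pool. The cKO pools stood at 401, 244 and 171 in saline and 197, 179 and 102 in carrageenan, which overlapped, and the changes of -0.89 ± 0.35 in Flox and -0.74 ± 0.35 in cKO were not called (adjusted p = 0.145 and 0.475, limma). Nr4a1, an orphan nuclear receptor, stood at 599, 539 and 454 in Flox saline and 262, 316 and 445 in Flox carrageenan (-0.66 ± 0.29, adjusted p = 0.187). In cKO it stood at 928, 723 and 504 against 668, 487 and 391, which overlapped (-0.47 ± 0.29, adjusted p = 0.708). Ier2, a small nuclear immediate early protein, ranged from 86.4 to 170 over all libraries (0.34 ± 0.32 in Flox and -0.08 ± 0.32 in cKO).

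In Flox, 7 of the 10 genes had saline and carrageenan pools that did not overlap (all but Junb, Atf3 and Ier2), beside 23.0% of all genes tested. In cKO only Fosb and Fosl2 did so, 2 of 10 beside 29.6% of all genes. Of the 7 in Flox, 6 were lower and Fosl2 alone was higher in carrageenan.

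**Figure D2:**
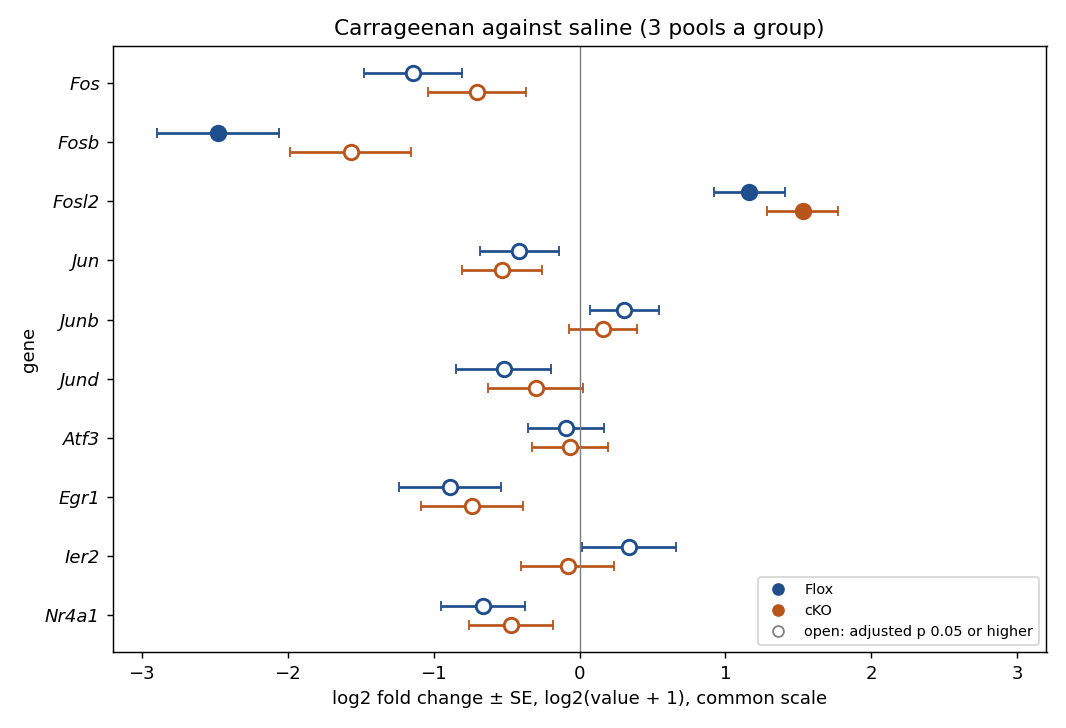
Log2 fold change of carrageenan over saline with its SE for each gene (common scale, 3 pools a group), in Flox and in cKO; filled points passed an adjusted p of 0.05 in limma. Only Fosb in Flox (-2.48) and Fosl2 in Flox (1.16) and cKO (1.53) are filled, and Fosl2 lies opposite to Fos, Fosb and Egr1 in both genotypes.

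The mean response of both genotypes, a comparison added after the results of each genotype were seen, called 4 of the 10 genes. Fosb fell by 2.02 ± 0.29 (log2, SE; adjusted p = 0.000422), Fos fell by 0.92 ± 0.24 (adjusted p = 0.0186), Egr1 fell by 0.81 ± 0.25 (adjusted p = 0.0468) and Fosl2 rose by 1.35 ± 0.17 (adjusted p = 0.000161), all with limma. Over all genes, 6.77% were called higher and 4.83% lower in this comparison. Fosb and Fosl2 kept their calls without any single library. Fos lost its call without the cKO saline pool 1-4 (-0.82, adjusted p = 0.0623) or 5-8 (-0.83, adjusted p = 0.0523). Egr1 kept its call in 3 of 12 such fits (largest adjusted p = 0.140). Nr4a1 (-0.57 ± 0.21, adjusted p = 0.0968) and Jun (-0.47 ± 0.19, adjusted p = 0.144) did not pass.

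The makeup of the Fos family within a library does not depend on scaling between libraries, and its Fosl2 and Fosb shares did not overlap between treatments. Fosl2 held 15.4, 10.8 and 21.0% of the reads of Fos, Fosb, Fosl1 and Fosl2 in the Flox saline pools and 53.4, 60.4 and 53.9% in the Flox carrageenan pools. It held 10.4, 15.1 and 21.1% in cKO saline and 42.1, 48.5 and 52.7% in cKO carrageenan. The lowest carrageenan pool was thus at 42.1% and the highest saline pool at 21.1%. The difference was 36.2 percentage points (means of 51.8 and 15.6%; exact two-sided permutation of treatment within genotype, p = 0.005, the smallest that 400 permutations can give, adjusted p = 0.012 over 12 tests).

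Fosb went the opposite way. It held 52.9, 49.9 and 40.7% in Flox saline and 18.8, 11.6 and 12.4% in Flox carrageenan, and 31.6 to 32.4% against 19.3, 10.4 and 8.25% in cKO. No carrageenan pool reached a saline pool, and the difference was -26.4 points (exact permutation, adjusted p = 0.012). In the shallowest library, Flox saline 1-3, the Fosb share rested on 248 of 469 reads, with an exact 95% binomial interval of 48.2 to 57.5% that covers counting error only. Fos also held a smaller share in carrageenan, by -12.4 points (means of 29.3 and 41.7%, exact permutation, adjusted p = 0.012). Shares of a family sum to a whole, so a larger share of Fosl2 lowers those of the others. Fosl1, which encodes Fra-1, held from 0.640 to 7.42%.

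With the cKO pools swapped within their number, a test added after these results were seen, the Fosl2, Fosb and Fos differences each had an exact p of 0.0125, the smallest that 160 permutations can give, and an adjusted p of 0.05, which did not pass.

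In the Jun family the differences between treatments were smaller. Jun held 10.2% of the reads of Jun, Junb and Jund in carrageenan and 12.5% in saline, a difference of -2.35 points (exact permutation, adjusted p = 0.02), which was -1.04 without the cKO saline pool 1-4. The call was lost without any one of the cKO carrageenan pools, and with the cKO pools swapped within their number (exact p = 0.025, adjusted p = 0.06). The Junb difference of 9.92 points (adjusted p = 0.0675) and the Jund difference of -7.57 points (adjusted p = 0.144) did not pass.

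**Figure D3:**
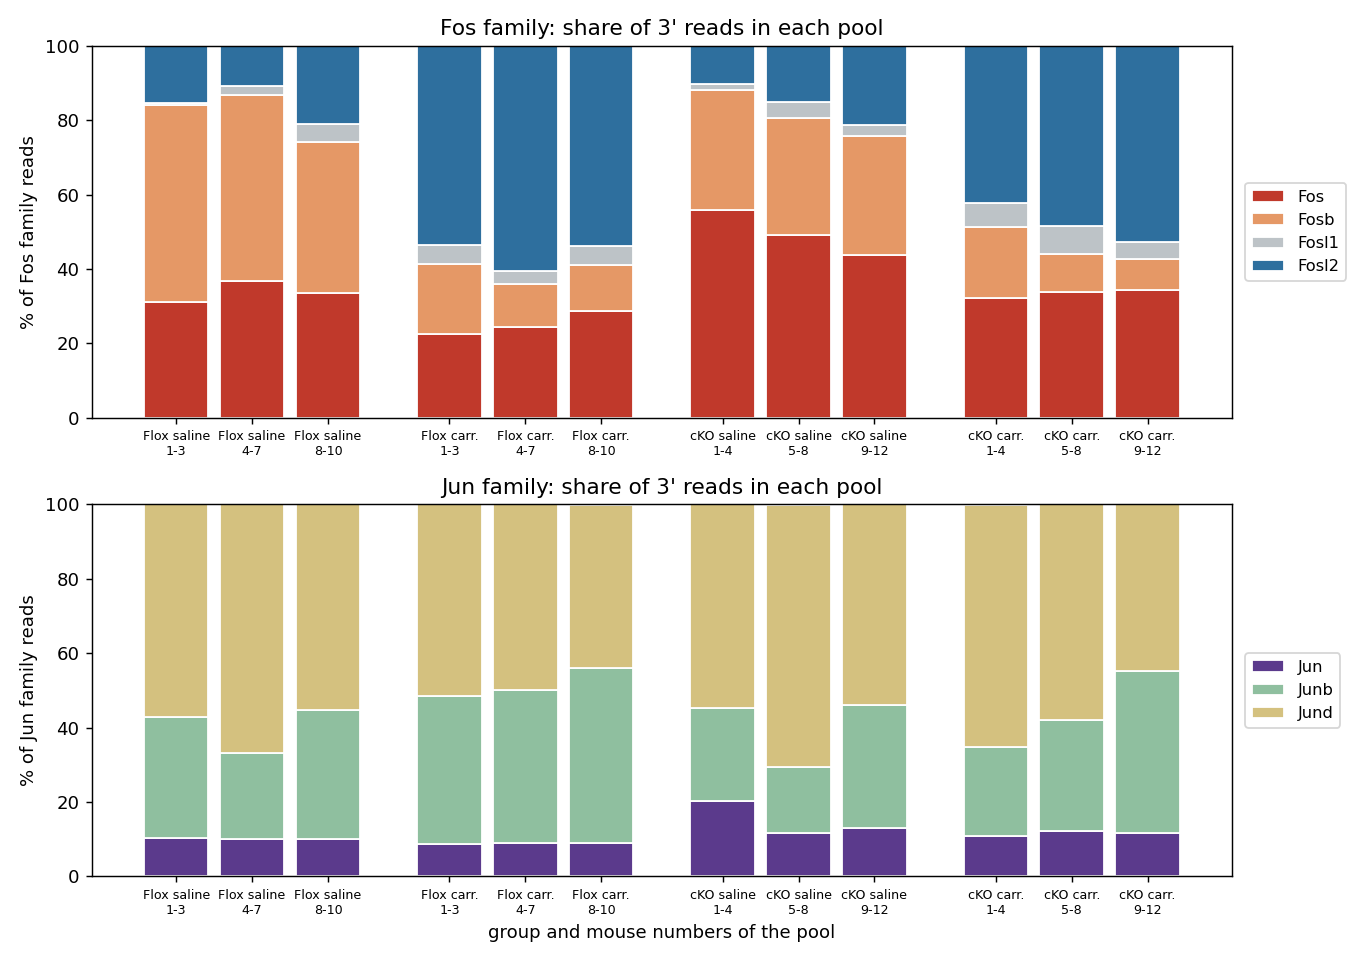
Share of the reads of the Fos family (upper) and the Jun family (lower) that each gene held in each of the 12 pools, in percent (stacked bars, 0 to 100). The Fosl2 segment spans 10.4 to 21.1% in saline pools and 42.1 to 60.4% in carrageenan pools, and the Fos segment is taller in cKO than in Flox pools of the same treatment.

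Markers of cell types moved with the same comparison. Resident macrophage markers fell, 9 of 12 in Flox and 6 of 12 in cKO, with summed levels of 7114 to 8913 in Flox saline and 1993 to 2310 in Flox carrageenan, and 8634 to 11430 against 2483 to 4781 in cKO. Inflammatory monocyte markers rose, 6 of 8 in each genotype, from 992 to 1807 in Flox saline to 5621 to 7518 in Flox carrageenan, and from 808 to 1463 to 2455 to 8279 in cKO. Neutrophil markers summed to 22.2 to 73.3 in Flox saline and 398 to 721 in Flox carrageenan, and 18.9 to 32.5 against 140 to 699 in cKO, while the granule genes Ngp and Camp were at 0 in all libraries. Among the 6 neutrophil markers tested, limma called 5 higher in Flox and 4 in cKO. Of the lymphocyte markers only the granzyme gene Gzmb passed the filter, and it rose in Flox (5.59 ± 0.74, log2, SE; adjusted p = 0.000867, limma) and cKO (4.11 ± 0.74, adjusted p = 0.00815), from 1 and 6 reads in the saline groups. Endothelial and mural markers summed to 0 to 21.6 in Flox saline and 44.6 to 74.8 in Flox carrageenan, with 2 of 6 called higher, and to 31.3 to 66.3 against 44.8 to 63.1 in cKO, with 0 called (0 at an unadjusted p under 0.05, and 0 in edgeR and DESeq2). In bulk RNA fewer cells of a type and less RNA per cell cannot be told apart, and the part of these shifts in the responses of Fosb, Fosl2 and Fos was not tested. Of 9 heat shock genes known to respond to tissue dissociation, 0 passed in either genotype in limma, edgeR or DESeq2, also at an unadjusted p under 0.05, with median changes of 0.17 and -0.0011.

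Around the 10 genes, 11 other basic leucine zipper partners of AP-1 had a median change of 0.42 in Flox and 0.40 in cKO. Batf, which encodes a Jun partner that lacks an activation domain, rose in Flox (3.45 ± 0.90, log2, SE; adjusted p = 0.0307, limma), and 0 of 11 passed in cKO (2 at an unadjusted p under 0.05; edgeR and DESeq2 each called 1). Its Flox saline pools held 24 reads in all. In cKO Batf was 1.67 ± 0.90 (adjusted p = 0.594). The difference of the carrageenan response between genotypes was not called in any of the 10243 genes tested. Of 21 other immediate early genes, 3 rose and 1 fell in Flox (medians of -0.20 in Flox and 0.16 in cKO). Socs3, a feedback inhibitor of cytokine receptors, rose in Flox (1.47 ± 0.23, adjusted p = 0.00222) and cKO (1.84 ± 0.23, adjusted p = 0.000962). Nr4a3, a relative of Nr4a1, also rose in both (1.06 ± 0.24 and 1.38 ± 0.24, adjusted p = 0.0167 and 0.00731). In Flox, Ier3 rose (1.44 ± 0.36, adjusted p = 0.0257) and Klf4 fell (-1.64 ± 0.33, adjusted p = 0.00851), and they stood at 0.55 ± 0.36 and -0.73 ± 0.33 in cKO.

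The input to AP-1 was represented by MAP kinases, serum response factor with its cofactors and CREB, of which 17 of 18 genes were tested. Mapkapk2, a kinase downstream of p38, rose in Flox (1.19 ± 0.34, log2, SE; adjusted p = 0.0466, limma), and Mapk14, which encodes p38 alpha, fell (-1.65 ± 0.37, adjusted p = 0.0153). In cKO 0 of 17 passed in limma (6 at an unadjusted p under 0.05; edgeR called 1 and DESeq2 called 3), with Mapk14 at -1.25 ± 0.37 (adjusted p = 0.110) and Mapkapk2 at 0.90 ± 0.34 (adjusted p = 0.262). Medians were 0.11 in Flox and -0.04 in cKO, close to those of all genes.

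Among 12 textbook AP-1 target genes, 6 rose in Flox, and 5 rose and 1 fell in cKO in limma, with median changes of 0.97 and 1.18. edgeR called 5 and DESeq2 called 7 of the 12 in Flox, and each called 9 in cKO. Ptgs2, the inducible cyclooxygenase, rose by 3.44 ± 0.50 in Flox and 3.23 ± 0.50 in cKO (log2, SE; adjusted p = 0.00142 and 0.00327, limma). The cytokine gene Il6 rose by 2.85 ± 0.32 and 2.29 ± 0.32 (adjusted p = 0.000363 and 0.00179). The protease gene Mmp3, the protease inhibitor gene Timp1 and the urokinase receptor gene Plaur also rose in both, and Mmp13 rose in Flox (4.40 ± 0.65, adjusted p = 0.00161, against 6 reads in all in Flox saline) and stood at 2.46 ± 0.65 in cKO (adjusted p = 0.0640). Ccnd1, which encodes cyclin D1, fell in cKO (-1.24 ± 0.29, adjusted p = 0.0331) and was -0.66 ± 0.29 in Flox. Fibroblasts also make Mmp3, Mmp13 and Timp1. The summed level of 6 fibroblast markers was 38.8 to 562 in Flox saline and 697 to 1208 in Flox carrageenan, and 256 to 644 against 682 to 1024 in cKO. Among these markers limma called 2 higher in Flox and 0 in cKO, where 1 had an unadjusted p under 0.05. In cKO edgeR and DESeq2 also called 0. The part of the fibroblast level in the changes of the target genes was not tested.

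**Figure D4:**
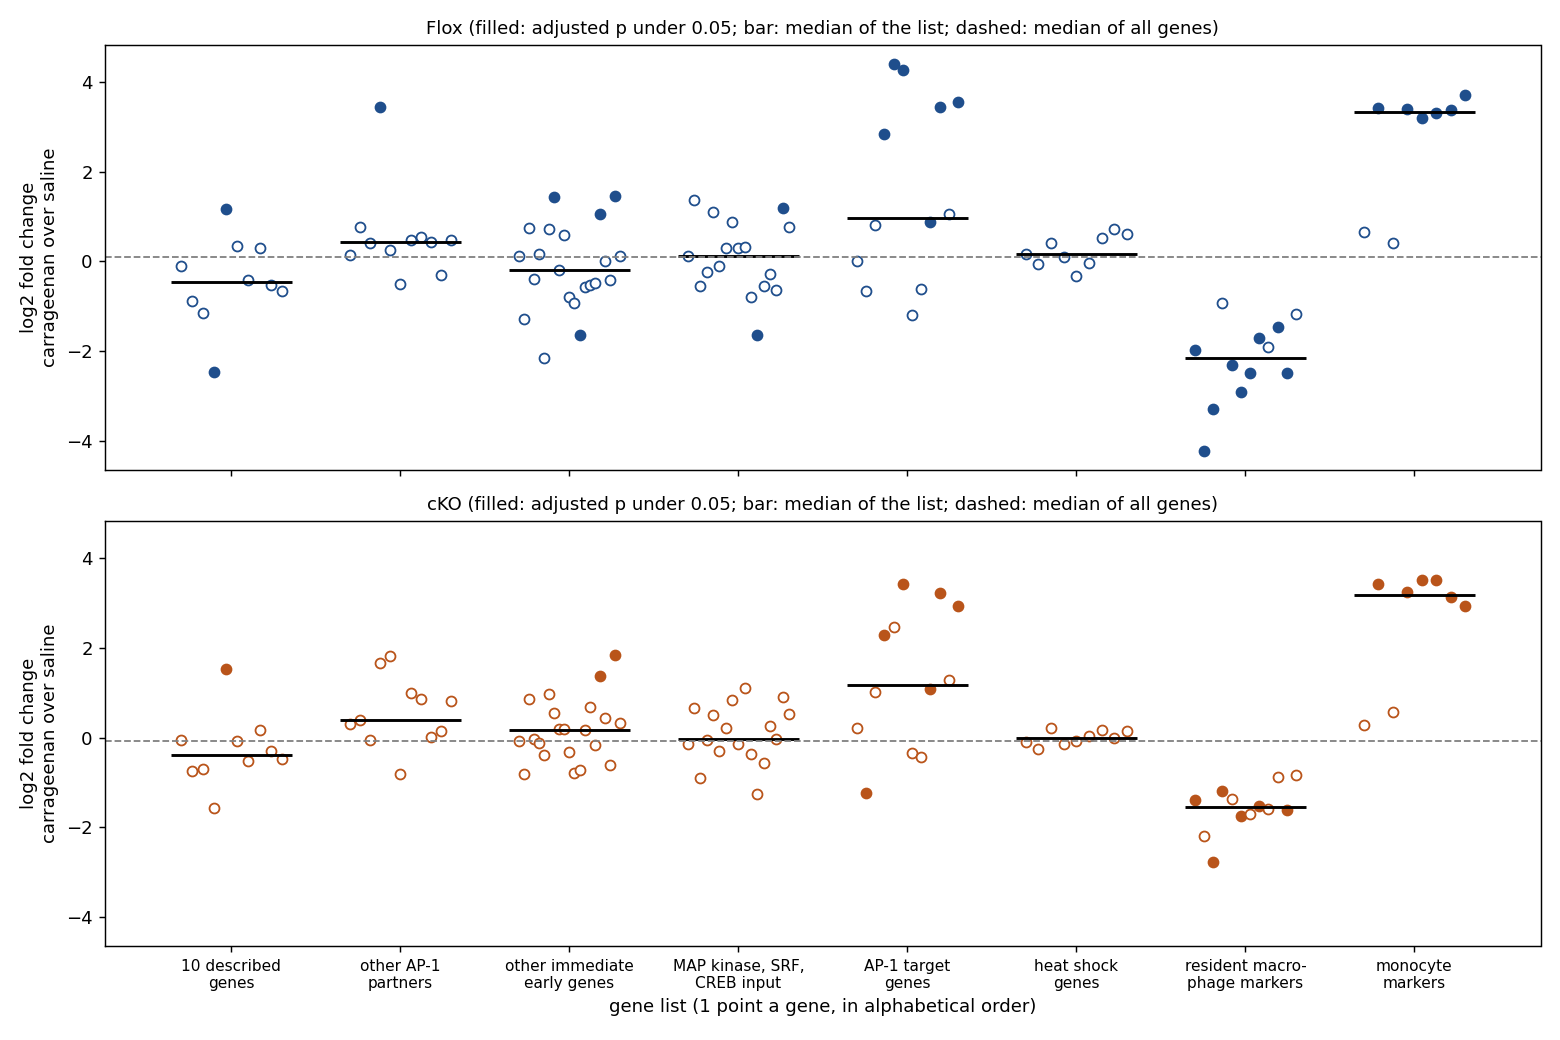
Log2 fold change of carrageenan over saline for the genes of 8 lists in Flox (upper) and cKO (lower); each point is a gene, filled where it passed an adjusted p of 0.05 in limma, the bar is the list's median and the dashed line the median of all genes (0.10 and -0.07). The medians of the AP-1 target genes lie at 0.97 and 1.18, while those of the 10 described genes lie at -0.47 and -0.39.

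The genes most like the mean profile of the 10 over the 12 libraries included Ddx5, Wnk1, Ccni and Sacm1l, by the root mean square difference of centred log2 values (0.183 to 0.194 among 5613 genes with a mean of at least 20). The mean profile averages genes that moved opposite ways, such as Fosb and Fosl2, so likeness to it is not likeness to each gene. The 10 genes themselves differed in spread, a measure not comparable with these distances. The SD over all 12 libraries was 1.24 (log2) for Fosb, with a pooled SD within groups of 0.61, and 0.22 for Junb, with 0.21 within groups. The nearest profiles to single genes were looked up after their values were seen. For Fosl2 they were Csf2rb2 (0.186) and Ugcg (0.197), for Jun they were Rhob (0.224) and Nr4a1 (0.254), and for Fosb the nearest was Abca9, at a distance of 0.378. Among the 10, the closest pairs were Junb with Ier2 (0.240) and Jun with Nr4a1, and the most distant was Fosb with Fosl2 (1.77).

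Genotypes were then compared in saline and in carrageenan, each as deposited, and none of the 10 genes passed in saline or in carrageenan with limma, edgeR or DESeq2 (2 at an unadjusted p under 0.05 in each with limma). Over all genes limma called 0.00% in either comparison (0 of 9371 in saline, with 508 at an unadjusted p under 0.05, and 0 of 9151 in carrageenan, with 897). edgeR called 0 in both, and DESeq2 called 23 and 10. However, DESeq2 left 2544 of the 9371 saline genes and 7096 of the 9151 carrageenan genes without an adjusted p. Such genes were counted as not called, and any of the 10 among them would be too. The median change of the 10 genes was 0.15 in saline and 0.26 in carrageenan, beside 0.25 and 0.09 over all genes. In saline 1 of the 10 had genotypes that did not overlap, beside 15.6% of all genes, and in carrageenan 2 of 10, beside 15.1%. These were Jun in both treatments and Fos in carrageenan.

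The Jun difference of cKO from Flox was 0.86 ± 0.32 (log2, SE; unadjusted p = 0.0251, adjusted p = 0.683, limma) in saline and 0.71 ± 0.23 (unadjusted p = 0.0102, adjusted p = 0.497) in carrageenan, and neither passed. On the deposited scale its means were 332 ± 47.6 (SD, n = 3) in Flox saline and 629.8 ± 254 in cKO saline. In carrageenan they were 233 ± 17.4 and 387 ± 73.6. Without the cKO carrageenan pool 9-12, which was the shallowest cKO library, Jun (0.86, adjusted p = 0.0305) and Jund (0.83, adjusted p = 0.0460) were called in carrageenan, as were 420 genes overall. Over both treatments the Jun difference was 0.79 ± 0.20 (unadjusted p = 0.00117, adjusted p = 0.194 in limma, 0.0625 in edgeR and 0.0173 in DESeq2). In that comparison limma called 1 gene of 10243 (0.00976%), none of the 10, with 1531 at an unadjusted p under 0.05.

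Fosb lay the other way in saline, at 1158 ± 489 in Flox and 558 ± 173 in cKO (SD, n = 3), a 2.00-fold lower level (SE 0.42 in log2 units; unadjusted p = 0.0416, adjusted p = 0.683, limma). The 2 groups overlapped, since the Flox pool 8-10 lay below the cKO pools 1-4 and 5-8. In carrageenan Fosb differed by -0.12 ± 0.37. Fos stood at 326 ± 37.0 in Flox and 470.3 ± 13.8 in cKO with carrageenan (0.53 ± 0.21, unadjusted p = 0.0268, adjusted p = 0.497) and differed by 0.12 ± 0.42 in saline. Nr4a1 was 0.43 ± 0.29 and 0.60 ± 0.28, and Fosl2 was -0.45 ± 0.26 and -0.11 ± 0.23, in saline and carrageenan. The other genes, Junb, Jund, Egr1, Atf3 and Ier2, lay between -0.28 and 0.53.

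**Figure D5:**
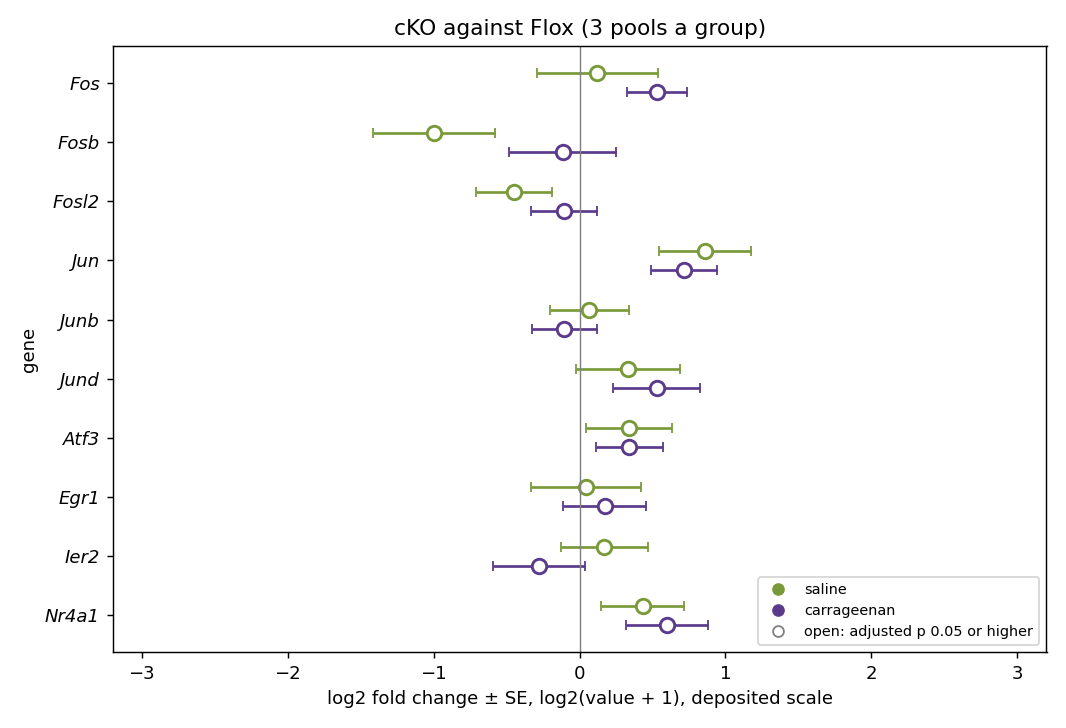
Difference of cKO from Flox in log2 units, with SE bars, for each gene (deposited scale, 3 pools a group), in saline and in carrageenan; every point is open, since none passed an adjusted p of 0.05. Jun lies at 0.86 and 0.71 and Fosb has the lowest value in saline and lies at -0.12 in carrageenan.

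Within the families, the shares of Fos and Jun passed a test by genotype that treats same-numbered pools as independent. Fos held 31.1, 36.9 and 33.5% of Fos family reads in Flox saline and 55.8, 49.2 and 43.8% in cKO saline. In carrageenan it held 22.5, 24.5 and 28.6% in Flox and 32.1, 33.7 and 34.4% in cKO. Every cKO pool lay above every Flox pool of its treatment, by 12.0 points on average (means of 41.5 and 29.5%; exact two-sided permutation of genotype within treatment, adjusted p = 0.012 over 12 tests). In saline Fos itself differed by 0.12 ± 0.42 (log2, SE), while the Fosb share was 40.7 to 52.9% in Flox and 31.6 to 32.4% in cKO.

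Jun held 10.4, 9.94 and 10.0% of Jun family reads in Flox saline and 20.2, 11.7 and 12.9% in cKO saline. In carrageenan it held 8.62, 8.92 and 8.96% against 10.9, 12.2 and 11.5%. The groups were again separate, by 3.76 points (means of 13.2 and 9.48%, exact permutation, adjusted p = 0.012). Both differences kept their calls without any single library (10.4 to 13.4 points for Fos and 2.45 to 4.57 for Jun). With same-numbered pools moved together neither passed (exact p = 0.1 for each, the smallest that 20 permutations can give; adjusted p = 0.133), and that design cannot reach the threshold. The Fosb difference of -8.76 points (adjusted p = 0.0514) and those of Fosl2, Junb and Jund (-4.13, -7.48 and 3.72 points, adjusted p = 0.169, 0.144 and 0.42) did not pass.

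Levels of some other lists also differed between genotypes, although limma called none of their genes. Only the heat shock sums lay apart in both treatments, while the other ranges given here overlapped in saline or in carrageenan. The summed level of the heat shock genes was 2336 to 5095 in Flox and 5676 to 9694 in cKO pools, with median changes of 0.83 in saline and 0.54 in carrageenan, and 0 of 9 passed in limma (4 and 5 at an unadjusted p under 0.05), 0 in edgeR and 2 and 3 in DESeq2. Hspa1b, an inducible heat shock protein 70 gene, was 2.57 ± 0.55 and 2.61 ± 0.50 (log2, SE; adjusted p = 0.683 and 0.497), and Hsph1 was 2.26 ± 0.43 and 1.77 ± 0.45. Of the 9 heat shock genes, 7 had an unadjusted p under 0.05 in limma over both treatments, where edgeR called 3 and DESeq2 called 4. Resident macrophage markers summed to 7114 to 8913 in Flox and 8634 to 11430 in cKO with saline, and to 1993 to 2310 and 2483 to 4781 with carrageenan, where 6 of 11 had an unadjusted p under 0.05 in limma. Over both treatments 8 of 12 did, and edgeR called 2 and DESeq2 called 4. Keratinocyte markers summed to 250 to 586 in Flox and 690 to 1444 in cKO with saline (3 of 4 at an unadjusted p under 0.05), and to 449 to 658 and 536 to 955 with carrageenan. Endothelial and mural markers summed to 0 to 21.6 and 31.3 to 66.3 with saline (3 of 3 tested at an unadjusted p under 0.05 in limma), and overlapped with carrageenan. Inflammatory monocyte markers went the other way, with median changes of -0.52 in saline and -0.70 in carrageenan. Over both treatments 3 of 8 had an unadjusted p under 0.05 in limma. Mitochondrial genes took 1.96 to 2.96% of reads in Flox saline and 2.34 to 4.05% in cKO saline, and 2.37 to 3.06% against 3.12 to 4.58% with carrageenan. The part of these values, or of depth, in those of Jun and Fos was not tested.

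Whether the carrageenan response differed between genotypes was tested directly, and no gene passed (0.00% of 10243 in limma, 244 at an unadjusted p under 0.05; edgeR and DESeq2 also called 0). The cKO response minus the Flox response was 0.88 ± 0.59 (log2, SE) for Fosb (adjusted p = 0.967), 0.41 ± 0.47 for Fos, 0.34 ± 0.34 for Fosl2 and -0.45 ± 0.45 for Ier2. A call in Flox that is absent in cKO is therefore not a shown difference.

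The authors' deposited tables of cKO over Flox gave adjusted p-values for all 10 genes in both treatments, and 0 of 10 lay under 0.05. In the authors' deposited tables, 5 of 5527 genes in carrageenan and 20 of 7233 in saline did. For Jun the authors' deposited table has a log2 change of 0.81 ± 0.30 (adjusted p = 0.388) in saline and 0.68 ± 0.24 (adjusted p = 0.258) in carrageenan.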

How the data were processed

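The deposited tables hold a signal in normalized counts, saline and carrageenan normalized separately by the authors. The authors' comparison tables hold, per the file headers, log2 fold changes with errors, a test score (not used) and p-values. Per the submitters' processing notes, cutadapt, STAR and GRCm38 were used. Not given in the sources used here were the counter, its annotation and the use of molecular identifiers, and the kit is a 3' mRNA kit (Lexogen LUTHOR), per the labels. Whole reads were recovered, since all low values were multiples of 1 step per library (100% within 0.001). Of 55401 gene identifiers 55141 matched a symbol, and 121 entries that are not genes (0.170 to 2.23% of reads) were left out.

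limma-trend was run on log2(value + 1), for genes of at least 5 in at least 3 libraries, with Benjamini-Hochberg adjustment over all genes and a threshold of 0.05. The added 1 understates the changes of low genes. Genotypes were compared on the deposited scale. Carrageenan and saline were compared on a common scale (medians of ratios over 6501 genes with a read in all 12 libraries). That scale sets levels across separately normalized tables: on the deposited scale the median change of all genes was 0.02 in Flox and -0.18 in cKO in place of 0.10 and -0.07, and the calls were 376 higher and 342 lower in Flox in place of 453 and 281, and 163 and 72 in cKO in place of 215 and 56. Family shares were tested by exact permutation. The limma, edgeR and DESeq2 fits were also run on simulated counts with large known changes, and the outcome is not given here. Smaller changes and the family share tests were not simulated. R 4.3.3, limma 3.58.1, edgeR 4.0.16, DESeq2 1.42.0 and scipy 1.17.1 were used.

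The members and lists were chosen with earlier results of these data known. Named were the 10 genes, Fabp5, Lyz2, the sort markers, up to 3 genes of each list by smallest p with all called genes where 3 or fewer, and the 5 nearest profiles, of which 1 is not reported here; other names were chosen after their values were seen. The motifs shown were narrowed, and the 3 promoters picked, after matches and values were seen. Lyz2, the Cre locus, differed in cKO from Flox by -0.57 ± 0.37 (log2, SE; adjusted p = 0.683) in saline and -1.14 ± 0.28 (adjusted p = 0.497) in carrageenan. Same-numbered pools deviated together in cKO (correlations over genes of 0.200, 0.336 and 0.433) and not in Flox (0.009, -0.018 and 0.109). The number was thus taken to pair the cKO pools only. This is a hint from the data: cKO saline 5-8 and carrageenan 1-4, of different numbers, correlated at 0.236, above the 0.200 of pools 1-4. The replicate block, and the genotype test that moved same-numbered pools together, nevertheless kept the number in both genotypes. Labels do not say that pools are separate experiments, so p-values measure the spread between pools.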

Additional observations from a re-analysis of the deposited data

How the results depend on the processing

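With any single library left out, the number of the 10 genes called ranged from 1 to 4 in carrageenan against saline in Flox (2 in the reported fit), 1 to 2 in cKO (1), 0 to 2 in cKO against Flox with carrageenan (0), 0 to 1 over both treatments (0) and 2 to 4 in the mean response (4). In cKO carrageenan against saline, 2 of the 10 genes were called by edgeR (beside 733 of 10240 genes tested), by DESeq2 (915) and with an added 5 (384). The same number was called with a mean of at least 20 (beside 316 of 5623), the deposited scale (235 of 10243) and the replicate block (263 of 10240). Quality weights called 5 of the 10, beside 2453 of 10240 genes. Weights also called 1 in cKO against Flox with carrageenan (beside 980 of 9151 genes) and 1 over both treatments (beside 1150 of 10243). There DESeq2 called 1, beside 254 of 10243. Counts over all genes in fits without a library are given in the next paragraph. The weights used limma's gene-by-gene method, chosen after the default did not converge. The replicate block called 736 genes in Flox and 263 in cKO. In Flox, where same-numbered pools were not seen to deviate together, it moved Fos past the threshold (-1.14, adjusted p = 0.0431). It changed no other call of the 10 genes beside Fosb in cKO. In the mean response Egr1 lost its call with an added 0.5 (-0.81, adjusted p = 0.0529) and with no filter (adjusted p = 0.119), and Nr4a1 passed on the deposited scale (adjusted p = 0.0467).

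Counts over all genes moved in cKO carrageenan against saline from 271 of 10240 to 2453 with weights, 915 with DESeq2 and 733 with edgeR. They were 139 of 22055 with no filter and 84 to 521 without a library. Counts in Flox (734 of 10240) were 418 of 22055 with no filter and 350 to 1078 without a library. In cKO against Flox they were 25 with weights in saline, 980 with weights and 0 to 420 without a library in carrageenan, and 1150 with weights, 254 with DESeq2, 65 with edgeR, 8 with an added 5, 3 on the common scale, 0 with no filter and 0 to 230 without a library over both treatments (1). The mean response called 1854 with DESeq2, 2067 with weights and 789 to 1547 without a library (1188).

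Signs turned only for uncalled changes. With weights Atf3 was 0.077 in Flox and 0.003 in the mean response, Ier2 -0.036 in the mean response, and Fosb 0.076 and Fosl2 0.001 in cKO against Flox with carrageenan. Without a library, carrageenan against saline in cKO ranged from -0.59 to 0.001 for Jund, -0.31 to 0.19 for Atf3 and -0.39 to 0.18 for Ier2, and the mean response from -0.20 to 0.05 for Atf3 and -0.025 to 0.26 for Ier2. In cKO against Flox with saline, Fos ranged from -0.19 to 0.50, Junb -0.018 to 0.216, Egr1 -0.27 to 0.33 and Ier2 -0.086 to 0.384, and with carrageenan Fosb -0.52 to 0.18, Fosl2 -0.245 to 0.053, Junb -0.193 to 0.019 and Egr1 -0.016 to 0.466. Family shares ranged from -10.5 to -7.49 points for Fosb by genotype, and by treatment from -3.16 to -1.04 for Jun and 7.10 to 12.1 for Junb. With same-numbered pools kept together (a replicate block, added after the results were seen) the differences were as reported, but those by treatment of Fosl2 (36.2 points), Fosb (-26.4), Fos (-12.4) and Jun (-2.35) and those by genotype of Fos (12.0) and Jun (3.76) no longer passed, with fewer permutations. The cause of the other moves was not tested. With 3 pools a group and as few as 111925 reads, moderate changes of the 10 genes could go uncalled.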
